A study of Mus musculus with 2 samples.

Results

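The Kruppel-like factors outside the erythroid program are 9 genes, Klf2, Klf3, Klf4, Klf6, Klf7, Klf9, Klf10, Klf13 and Klf16, given as a list of names. The list was drawn up with earlier results of these data known, and 7 other relatives outside the erythroid program are not on it. All 9 had a row in the deposited gene tables, among 21461 nuclear protein-coding genes. Total RNA was sequenced after removal of ribosomal RNA in 2 libraries. The source was C57BL/6J mice, male and adult at 5 to 6 weeks, and the cells were primary. The labels call them megakaryocytes, cite an isolation protocol whose title names bone marrow, number the libraries as biological replicates 1 and 2, and name the same donor for both. A size range of 221 to 1000 nucleotides is given for library 1 and one of 200 to 1000 for library 2. The part of this range in differences between the libraries was not tested. No genotype, treatment or second group is given, so levels were compared between genes and the libraries with each other.

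Kruppel-like factors are transcription factors that bind GC-rich and CACCC sequences with a set of 3 zinc fingers at the end of the protein. Outside the fingers they differ. Klf3 recruits the corepressor CtBP, Klf9, Klf10, Klf13 and Klf16 bind the corepressor Sin3A, and Klf2, Klf4, Klf6 and Klf7 act largely as activators. In blood cells the family is known for setting cell state: Klf4 promotes the monocyte fate, Klf2 keeps lymphocytes and monocytes quiescent, and Klf6 and Klf10 respond quickly to outside signals. Klf1, which is not among the 9, is the member that drives red cell genes.

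The fingers are the part that the 9 proteins share, so their coding sequences were compared between the members. The coding sequence of the last finger is shown for each gene, from the GENCODE M21 transcript with the highest share of the gene. Sequences run 5′ to 3′ on the coding strand, and capitals mark the codons of the 2 cysteines and 2 histidines that hold the zinc ion.
Klf2: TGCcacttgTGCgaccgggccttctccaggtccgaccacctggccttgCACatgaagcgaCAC
Klf4: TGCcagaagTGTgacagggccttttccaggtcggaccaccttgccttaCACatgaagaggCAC
Klf6: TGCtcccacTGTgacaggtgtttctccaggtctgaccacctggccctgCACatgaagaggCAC
Klf7: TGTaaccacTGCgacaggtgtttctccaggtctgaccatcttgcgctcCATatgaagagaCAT
Klf3: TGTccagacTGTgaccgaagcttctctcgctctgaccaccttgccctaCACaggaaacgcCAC
Klf9: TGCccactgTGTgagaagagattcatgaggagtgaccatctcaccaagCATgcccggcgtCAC
Klf10: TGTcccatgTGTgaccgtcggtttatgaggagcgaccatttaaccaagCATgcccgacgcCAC
Klf13: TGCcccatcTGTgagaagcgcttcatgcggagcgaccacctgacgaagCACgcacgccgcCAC
Klf16: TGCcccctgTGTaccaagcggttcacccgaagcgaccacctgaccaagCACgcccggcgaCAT

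In all 9 genes 19 of the 63 bases were the same. On mm10 the finger lies at chr8:72320851-72320913 (plus strand, exon 3) in Klf2, chr4:55528131-55528193 (minus strand, exon 5) in Klf4 and chr5:64829084-64829146 (plus strand, exon 6) in Klf3. It lies at chr19:23164790-23164852 (plus strand, exon 2) in Klf9, chr15:38295995-38296057 (minus strand, exon 4) in Klf10, chr7:63891628-63891690 (minus strand, exon 2) in Klf13 and chr10:80569053-80569115 (minus strand, exon 2) in Klf16. In Klf6 and Klf7 an intron splits it after 17 bases, between exons 3 and 4 of both genes. The Klf6 parts are chr13:5866746-5866762 and chr13:5867232-5867277 (plus strand), and the Klf7 parts chr1:64042314-64042330 and chr1:64035719-64035764 (minus strand). The fingers end the protein almost exactly in Klf2, Klf4, Klf6 and Klf7, where 1 codon follows before the stop codon. After the fingers 3 codons follow in Klf3, 19 in Klf9, 29 in Klf10, 39 in Klf13 and 43 in Klf16.

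Over the whole 3-finger stretch of 243 bases, the 36 pairs of members shared from 57.2% to 81.1% of their bases, with a median of 64.6%. Klf6 and Klf7 were the most alike at 81.1%, followed by Klf2 and Klf4 at 78.2% and Klf13 and Klf16 at 75.3%. The Sin3A-binding set Klf9, Klf10, Klf13 and Klf16 shared from 64.6% to 75.3% among themselves and from 57.2% to 66.3% with the other 5. Those 5, Klf3 included, shared from 67.9% to 81.1%. No pair of leading transcripts held an identical run longer than 26 bases, which was the run between Klf6 and Klf7. The deposited posterior standard deviation of the gene count was 0 for all 9 members in both libraries, that is, the estimate took the gene of each read as certain.

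**Figure D1:**
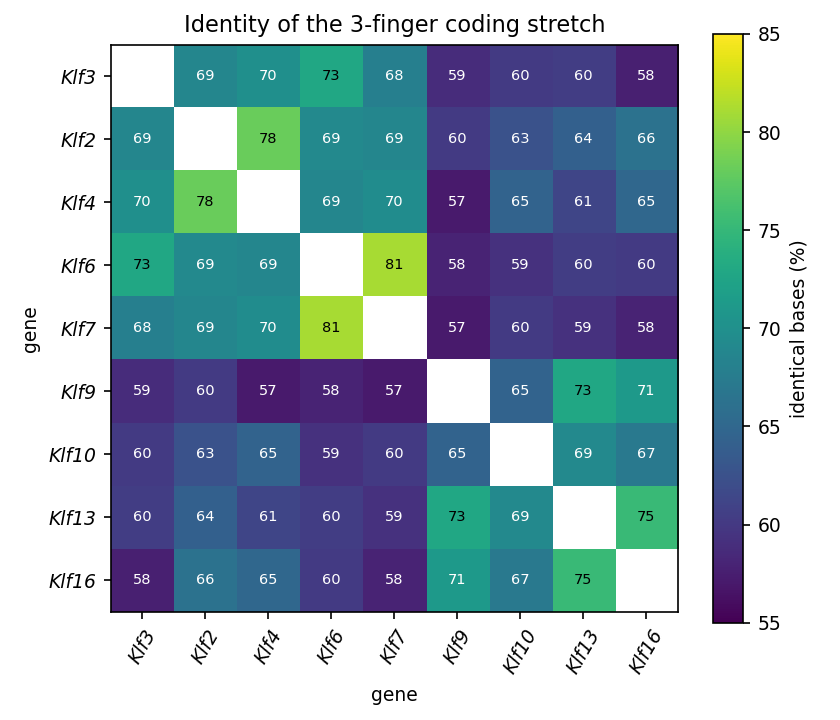
Identity of the coding stretch for the 3 zinc fingers (243 bases, no gaps) between each pair of members, in percent of identical bases (colour and number, rounded). Klf6 and Klf7 form the most alike pair at 81.1%, and Klf9, Klf10, Klf13 and Klf16 share 66.3% or less with the other 5.

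Summed expected counts, the estimated reads per gene, were 42703213 in library 1 and 50532821 in library 2. Levels are given as TPM, a transcript's share, per length, of a fixed total, of which protein-coding genes of the nucleus held 24.0% in library 1 and 26.8% in library 2. The label was checked against markers of 9 cell types. Megakaryocyte and platelet markers were nearly missing: 12 of 15 did not reach 1 TPM in either library, Gp5, Gp6 and Mpig6b had no count, and the summed level was 10.6 and 12.2 TPM, led by Itgb3 at 5.92 and 5.66 and Itga2b at 3.26 and 4.89 TPM. All 12 neutrophil markers, led by S100a8 and S100a9, and all 10 monocyte and macrophage markers, led by Lyz2 and Ccr2, stood above 10 TPM, with sums of 14600 and 13862 TPM for the first and 7006 and 9217 TPM for the second. Sums were 276 and 301 TPM for the list of basophils, eosinophils and mast cells, 126 and 158 for dendritic, 116 and 55.7 for erythroid, 33.5 and 19.9 for T and NK, 11.9 and 12.2 for endothelial and stromal, and 3.34 and 4.33 for B cell markers. These markers go against the label, and the libraries are named by their numbers.

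Levels of the 9 factors spanned a wide range. Klf6 stood highest, then Klf4, Klf10 and Klf13, and Klf9 and Klf16 were the lowest. A level of 1 TPM was reached in each library by all 9, against 42.4% of nuclear protein-coding genes, and one of 10 TPM by 4 of 9, against 16.9%. Since the list was made with earlier results known, and relatives without counts are not on it, these shares describe the list and support nothing about the family. Klf13 was among the 4 by the TPM of the gene, while its leading transcript Klf13-201 alone stood at 11.7 and 9.94 TPM. The median over the members was 9.21 TPM, against 0.28 TPM over all nuclear protein-coding genes and 8.04 TPM over the genes that reached 1 TPM in each library. The 4 highest members held 85.1% of the summed TPM of the 9 in library 1 and 85.3% in library 2. In bulk RNA, a low level from all cells and a high level from a few cells cannot be told apart.

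The activators held the first, the second, the sixth and the seventh place in the order by mean TPM. Klf6, an early response factor, stood at 46.4 TPM in library 1 and 51.7 in library 2, a mean of 49.1 ± 3.73 (SD, n = 2). It ranked 772 and 761 among the nuclear protein-coding genes and took 35.0% and 36.3% of the members' summed TPM. Its count of 18573 and 23450 was the largest of the family in both libraries.

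Klf4, the factor of monocyte differentiation, stood at 29.0 and 26.6 TPM, a mean of 27.8 ± 1.70 (SD, n = 2). Library 1 was the higher one, and its deposited interval of 28.1 to 29.4 TPM lay above the 25.8 to 26.9 TPM of library 2. The intervals come from the authors' tables, their level is not stated, and they cover counting and assignment error only. Klf2, the quiescence factor, stood at 4.71 and 7.0 TPM, a mean of 5.86 ± 1.62 (SD, n = 2), from 766 and 1286 counts. Here library 2 was the higher one, and the intervals of 4.33 to 4.99 and 6.56 to 7.33 TPM were apart. Klf7, the close relative of Klf6, stood at 3.25 and 2.28 TPM, a mean of 2.77 ± 0.686 (SD, n = 2), from 1945 and 1865 counts. Klf6 and Klf7, whose fingers are the most alike, were the first and the seventh in the order by mean TPM.

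Klf3, the CtBP-binding repressor, stood in the middle of the order at 9.43 and 8.99 TPM, a mean of 9.21 ± 0.311 (SD, n = 2), with 1976 and 2113 counts. Its intervals of 8.96 to 9.79 and 8.55 to 9.35 TPM overlapped between the libraries. The Klf3 transcript in the files is 2314 bases long, against 5221 bases for the same transcript in M21, so the bases that M21 adds are not part of its length in the files. The same holds for Klf9, with 3263 bases in the files and 4486 in M21. The other leading transcripts differed by at most a few bases between the releases, as Klf6 with 4217 and 4225.

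The Sin3A-binding repressors split into a pair of higher and a pair of lower genes. Klf10, known as a TGF-beta inducible early gene, stood at 21.7 and 26.1 TPM, a mean of 23.9 ± 3.14 (SD, n = 2), higher in library 2 with intervals apart (20.9 to 22.0 and 25.3 to 26.5 TPM). Klf13, known as an activator of the chemokine gene Ccl5 in T cells, stood at 15.97 and 16.91 TPM, a mean of 16.4 ± 0.665 (SD, n = 2), with overlapping intervals. Klf9, a gene induced by glucocorticoids, stood at 1.01 and 1.62 TPM, a mean of 1.32 ± 0.431 (SD, n = 2), from 309 and 558 counts. Klf16 stood at 1.32 and 1.08 TPM, a mean of 1.20 ± 0.17 (SD, n = 2), from 325 and 300 counts. Klf16 was the higher of these low genes in library 1 and Klf9 in library 2, so their order differed between the libraries.

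Of the 8 pairs of neighbours in the order of mean TPM, 6 were told apart by ranges over the libraries that did not meet and by deposited intervals that did not overlap in either library. The exceptions were Klf4 with Klf10 and Klf9 with Klf16. Klf4 exceeded Klf10 by 1.34 times in library 1 and by 1.02 times in library 2, where the intervals overlapped. Klf6 exceeded Klf4, the next gene, by 1.60 and 1.95 times. From the highest to the lowest member the ratio of Klf6 to Klf16 was 35.2 in library 1 and 47.9 in library 2.

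**Figure D2:**
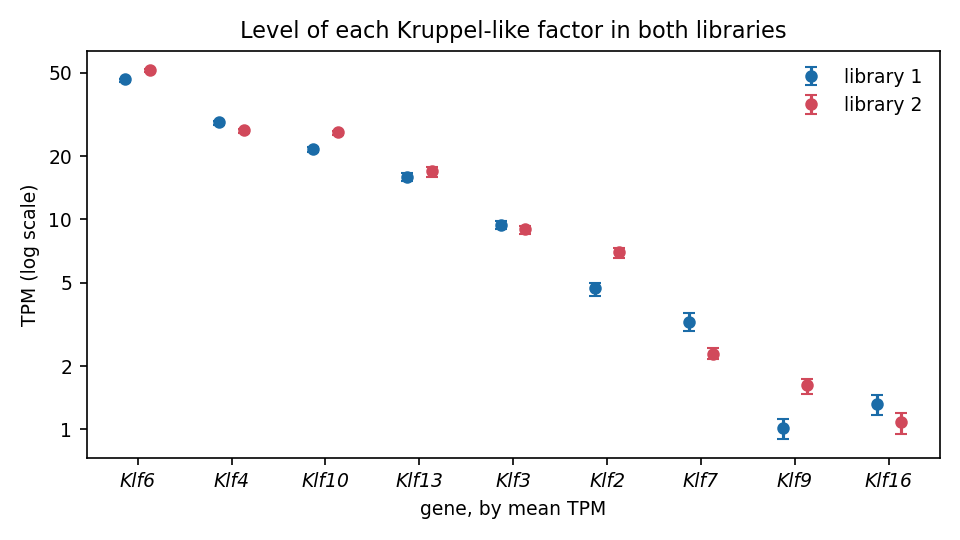
TPM (log scale) of each member in library 1 (blue) and library 2 (red), ordered by mean; bars are the deposited TPM intervals, whose level is not stated. Klf6 stands at 46.4 and 51.7 TPM, the intervals of Klf4 (26.6 TPM) and Klf10 (26.1 TPM) overlap in library 2, and Klf9 and Klf16 change places between the libraries.

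The libraries were next compared with each other, gene by gene, on counts scaled with edgeR's TMM factors. The two-sided exact binomial test with Benjamini-Hochberg adjustment over 12081 genes holds counting error alone and compares these 2 libraries, not conditions. All 9 members passed it, 4 higher in library 2 and 5 higher in library 1. Among all genes tested, 65.6% passed, 33.1% higher in library 2 and 32.6% higher in library 1, so passing was common. At least a 1.5-fold difference was reached by 1 member, Klf9, higher in library 2, against 16.5% of all genes (7.42% higher in library 2 and 9.06% higher in library 1).

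By count Klf9 and Klf2 differed the most, both higher in library 2; by TPM relative to the median gene, Klf7 at -0.58 came before Klf2 at 0.50. For Klf9 the log2 ratio of library 2 over library 1 was 0.61 (1.52-fold, adjusted p = 7.8e-09, exact binomial test). For Klf2 it was 0.50 (1.42-fold, adjusted p = 1.2e-13, same exact test). A difference larger than that of Klf9 in either direction was shown by 15.9% of all genes tested and one larger than that of Klf2 by 20.2%, so neither was rare. Klf10 at 0.20 and Klf6 at 0.09 were the other factors higher in library 2. In the opposite direction the log2 ratio was -0.36 for Klf16, -0.31 for Klf7, -0.27 for Klf13, -0.19 for Klf4 and -0.15 for Klf3, with adjusted p from 2e-28 (Klf13) to 0.0033 (Klf16) in the same exact binomial test. Of the 3 pairs with the most alike fingers, Klf6 and Klf7 went in opposite directions, as did Klf2 and Klf4, while Klf13 and Klf16 were both higher in library 1 by count.

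With 1 library on each side, a spread between replicates could not be measured apart from the difference tested, so the values that follow rest on an assumed or a shared estimate. At an assumed biological coefficient of variation (BCV) of 0.1, edgeR's exact test called 0 of 9 members and 12.9% of all genes. Klf9 (adjusted p = 0.061) and Klf2 (adjusted p = 0.12) were the only members with an unadjusted p under 0.05 in that exact test, against 21.8% of all genes. At the common BCV of 0.241, which edgeR estimated from the same libraries, it called 0 members, and 4.02% of all genes. At an unadjusted p under 0.05 it still took 0 members, against 8.25% of all genes.

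Markers of several cell types also differed between the libraries by the exact binomial test. Of 10 monocyte and macrophage markers, 8 were higher in library 2 and 2 higher in library 1. Of 12 neutrophil markers, 8 were higher in library 1 and 1 higher in library 2. Erythroid markers were higher in library 1 in 9 of 10 cases, and T and NK cell markers in 7 of 9. Their part in the differences of the Kruppel-like factors was not tested.

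**Figure D3:**
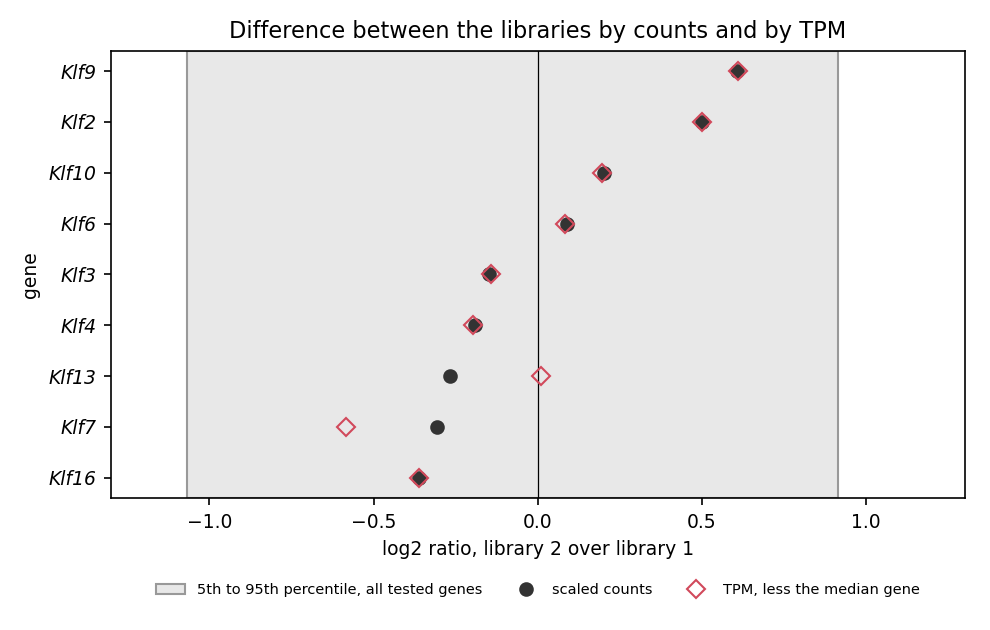
Log2 ratio of library 2 over library 1 for each member, from scaled counts (filled circles) and from TPM less the median gene (open diamonds); the grey band spans the 5th to 95th percentile of all genes tested, -1.07 to 0.92. All members lie inside the band, and only Klf7 and Klf13 differ visibly between counts and TPM.

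Klf13 and Klf7 gave different answers by count and by TPM, and their transcripts show where the scales part. By TPM the log2 ratio of Klf13 was 0.08, against -0.27 by count. The median gene had a log2 TPM ratio of 0.07, and relative to it Klf13 stood at 0.01. For Klf7 the ratio relative to the median gene was -0.58 by TPM, against -0.31 by count. Only in Klf13 did the sign differ, and in the other 8 members, Klf7 included, both scales gave the same sign.

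In the files, 5 of the 9 genes (Klf2, Klf6, Klf9, Klf10 and Klf16) had a single annotated transcript. In Klf4 the full-length coding transcript Klf4-201 took all of the TPM in both libraries. In Klf3 the coding transcript Klf3-201 took 100% of it in library 1 and 97.9% in library 2. All 9 leading transcripts were of the protein-coding type.

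In Klf13 (chr7:63886351-63938915, minus strand), the full-length coding transcript Klf13-201 held 73.5% of the TPM in library 1 and 58.8% in library 2. By expected count it held 96.7% and 94.4%, 7262 and 6981 counts. The rest lay in short forms. Klf13-203, a transcript of the retained intron type that lies inside the intron of Klf13-201 (chr7:63935399-63936332), held 19.0% and 25.3% of the TPM from 216 and 340 counts. Klf13-204, a short form that begins inside the same intron, held 7.49% and 15.9% of the TPM from 31.7 and 77.5 counts. Klf13-201 alone stood at 11.7 and 9.94 TPM, lower in library 2 like the count of the gene, with deposited intervals of 11.3 to 11.9 and 9.62 to 10.1 TPM that were apart. The gene TPM of Klf13 is the sum of this form and the short ones.

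In Klf7 (chr1:64029447-64122282, minus strand), the long coding transcript Klf7-202 held 79.0% of the TPM in library 1 and 96.2% in library 2, with 1910 and 1853 counts. Klf7-203, an incomplete coding model of 553 bases with its own first exon, held 16.8% of the TPM in library 1 from 18.1 counts and none in library 2. Klf7-201, whose last exon holds only the first part of the last finger and runs on into the intron, held 4.19% and 3.85%. The full-length form alone stood at 2.56 and 2.19 TPM, and relative to the median gene its log2 ratio was -0.30, close to that of the counts. In library 1 the short Klf7-203 added 0.55 TPM to the gene level.

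**Figure D4:**
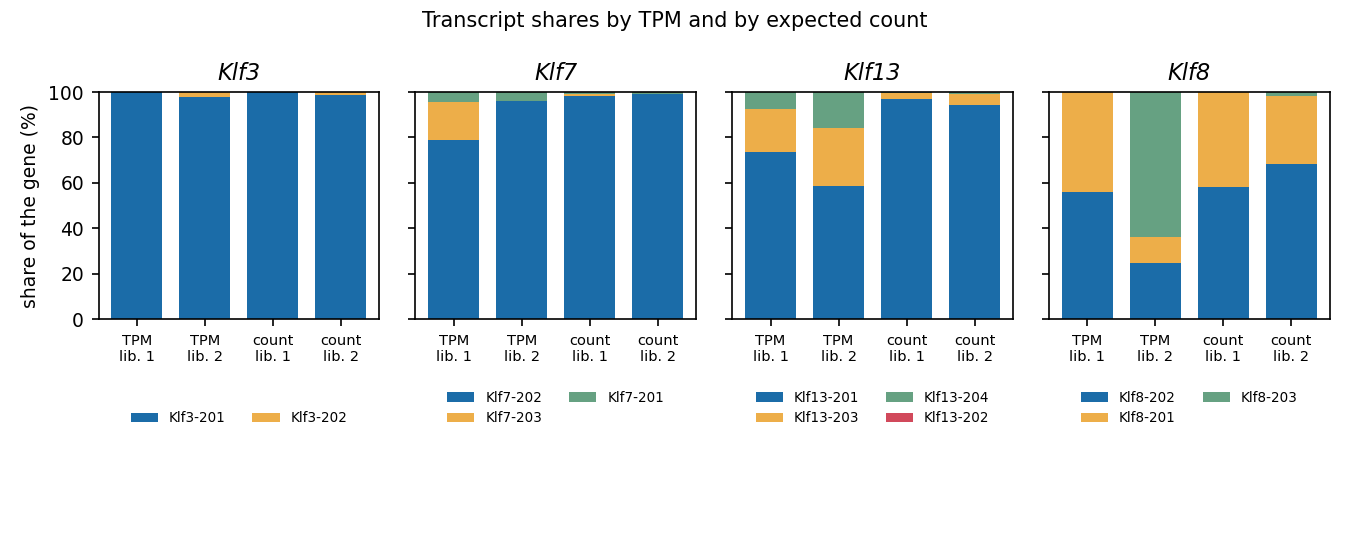
Share of each transcript in its gene (%), by TPM and by expected count in each library, for Klf3, Klf7 and Klf13 and for Klf8, a relative outside the 9. The leading transcripts of Klf7 and Klf13 hold over 94% of the counts in both libraries and less of the TPM, and in library 2 Klf8-203 holds 63.6% of the Klf8 TPM from 9 counts.

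Other genes overlap 4 of the members by position, and 5 members have no overlapping gene in M21. Among the 7 overlapping genes with a row, 5 lie on the opposite strand, and none had more than 23 counts. That highest count belonged to Gm26649, a noncoding gene on the opposite strand of Klf7, with 23 and 2 counts. Gm20033 over Klf3 had 6 and 0 counts, Gm13748 over Klf7 and Gm27252 and E030018B13Rik over Klf13 had 1 and 0 each, and the microRNA genes Mir6899 in Klf7 and Mir1192 in Klf9 had none. Of the 50-base words of Klf7-202, 40.8% also occur, on either strand, in Gm26649, and 6.92% of those of the longer M21 form of Klf3-201 occur in other genes. In the other 7 members the share was at most 0.268%. The sources used here do not say whether strand was used in counting.

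The 8 relatives not on the list follow, and the division was made with earlier results known, so a lower level among them is no finding. Of the 8 other Kruppel-like factors, none reached 10 TPM in both libraries, and Klf11 alone reached 1 TPM in each. The 9 members held 95.3% of the summed TPM of all 17 family genes in library 1 and 95.5% in library 2. Klf11, the close relative of Klf10, stood at 2.34 and 2.17 TPM, a mean of 2.26 ± 0.12 (SD, n = 2). Klf1, the erythroid factor, stood at 2.16 and 0.51 TPM, and its difference was larger than that of any of the 9 (log2 ratio -2.16, adjusted p = 1.9e-36, exact binomial test). Klf5, an epithelial and progenitor factor, stood at 1.25 and 0.93 TPM.

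Klf8, a CtBP-binding relative of Klf3, stood at 0.87 and 3.06 TPM from 383 and 569 counts. Most of its TPM in library 2 lay in Klf8-203, a model of 247 bases with no count in library 1. Its effective length was 40.6 bases in library 2, where 9 counts gave 1.95 TPM. Of the longer forms, Klf8-202 stood at 0.49 and 0.75 TPM, with overlapping intervals, and Klf8-201 at 0.38 and 0.36 TPM. By count the log2 ratio of Klf8 was 0.32. Klf12, Klf14, Klf15 and Klf17 had no count in either library, which at 3 counts allows up to 0.0183 TPM for Klf12 in library 1 and 0.0162 in library 2, and less for the other 3. Klf12 is the remaining CtBP-binding member, so Klf3 was the highest gene of that group.

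Sp factors bind the same GC-rich boxes with similar fingers. Sp3 at 67.1 and 60.7 TPM stood above Klf6, and Sp1 stood at 21.1 and 18.4 TPM, between Klf13 and Klf10 in both libraries. Sp4 followed at 3.14 and 3.52 TPM and Sp2 at 2.06 and 1.46 TPM, while the other 5 of the 9 had no count in either library. Sp3 exceeded both Sp1 and all 9 Kruppel-like factors in each library.

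**Figure D5:**
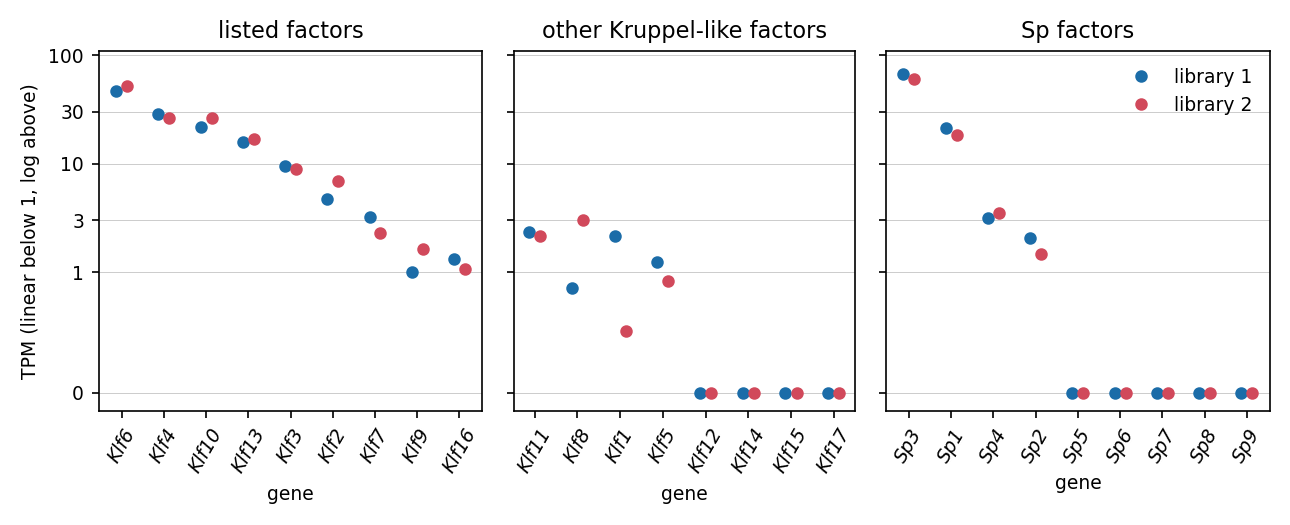
TPM of the 9 listed factors, the 8 other Kruppel-like factors and the 9 Sp factors in library 1 (blue) and library 2 (red), on an axis that is linear below 1 TPM and logarithmic above. The listed factors run from 1.01 to 51.7 TPM, the other Kruppel-like factors from 0 to 3.06 TPM, and 5 Sp factors are at 0.

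Corepressors and coactivators that these factors recruit were all present, with a median of 18.0 TPM, and 9 of 10 reached 10 TPM in each library. Sin3a, which encodes the partner of the Klf9, Klf10, Klf13 and Klf16 group, stood at 23.3 and 23.7 TPM, and Sin3b at 20.0 and 26.1 TPM. Ctbp1, the partner of Klf3, stood at 24.41 and 20.99 TPM, and the histone deacetylase gene Hdac2 at 22.4 and 23.3 TPM. By the exact binomial test 3 of the 10 were higher in library 2 and 5 higher in library 1.

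Among 13 genes that act upstream of the family, all reached 1 TPM in each library, with a median of 5.98 TPM. The list holds the MEK5 and ERK5 kinases and MEF2 factors that induce Klf2, the ubiquitin ligase genes Wwp1 and Fbxw7 whose products remove it, and genes of TGF-beta and glucocorticoid signalling. Mef2a stood at 20.7 and 18.2 TPM. Of the 13, 9 were higher in library 1 and 1, Wwp1, higher in library 2. Among all genes tested these shares were 32.6% and 33.1%. For Mef2a the log2 ratio by count was -0.21.

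Genes described as targets of single members stood at very different levels. Lgals3, the galectin-3 gene that Klf3 represses in other cells, stood at 152 and 184 TPM. Myeloid cells also express it. Thbd, the thrombomodulin gene that Klf2 activates in endothelium, stood at 7.77 and 8.55 TPM, and Ccl5, the target of Klf13, at 2.77 and 1.97 TPM. Over the 9 targets 4 were higher in library 2 and 1, Ccl5, higher in library 1, with a median of 1.25 TPM. Of all genes tested, 33.1% were higher in library 2 and 32.6% higher in library 1. Ccl5 was lower in library 2 (log2 ratio -0.73), as were 7 of the 9 T and NK cell markers, and their part in it was not tested.

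Glucocorticoid response genes other than Klf9 had a median of 13.8 TPM, and all 6 reached 1 TPM in each library. Zfp36, which encodes an mRNA decay factor, stood at 47.5 and 43.2 TPM, Tsc22d3, the glucocorticoid-induced leucine zipper gene, at 20.6 and 23.2 TPM, Dusp1, a phosphatase gene, at 16.3 and 14.6 TPM and Sgk1, a kinase gene, at 12.1 TPM in both libraries. Tsc22d3 and Sgk1 were higher in library 2 by count, Zfp36 and Dusp1 higher in library 1, and the other 2 of the 6 did not pass the test. Klf9, at 1.01 and 1.62 TPM, lay below every gene of the list in both libraries.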

How the data were processed

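Reads were mapped to mm10 with annotation release M4, per the text files that the authors deposited; the sources used here do not give the aligner, quantifier or strand setting. Per the file headers, the authors deposited expected counts (estimated, not normalized), TPM, posterior mean TPM, FPKM, a TPM interval and the percent of gene TPM per transcript. Symbols, types and coordinates came from GENCODE M21 (same build) by ID without version: 42462 of 43346 mouse IDs matched. Expected counts were rounded and scaled with edgeR 4.0.16 (TMM, R 4.3.3). Genes whose mean count reached 10 were tested with a two-sided exact binomial test and Benjamini-Hochberg adjustment at 0.05; the p-values cover counting error between these libraries, and nothing shows that they came from separate animals. The test was checked on counts simulated with counting error alone, the only error that it assumes. That check does not cover a spread between replicates, so it cannot show how the test behaves on these libraries. Alternatives used DESeq2 1.42.0 size factors, other filters and edgeR's exact test. Finger stretches were found by the spacing of cysteine and histidine codons. The members, the 6 pathway and the 9 cell type lists were chosen with earlier results of these data known. By rule the text names all members, other Kruppel-like factors, up to 4 highest genes of each pathway list, the 2 highest of each cell type list (here for the leading lists only) and genes overlapping a member; some of these are left unnamed. Wwp1, Fbxw7 and the markers without counts were named after their values were seen.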

Additional observations from a re-analysis of the deposited data

How the results depend on the processing

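The levels kept within their spread between libraries for all 9 members with posterior mean TPM and with FPKM-based shares. Leaving out either of 2 libraries returns the other's value, which cannot leave their spread and shows nothing about stability. Rescaled to nuclear protein-coding genes, all 9 levels rose, since all other genes then leave the total. The median over members went from 9.21 to 36.4 and 6 members in place of 4 reached 10. The share of all genes that reached 10 on that scale was not computed. Without either library 4 members reached 10 TPM by the level of the gene, and the median lay between 8.99 and 9.43 TPM. In library 2 the leading transcript of Klf13 alone, at 9.94 TPM, did not reach it. With DESeq2 size factors, total counts, no filter or a mean count of 100 or more, all 9 members kept passing the exact binomial test. Passing stayed common among all genes under these settings. With DESeq2 size factors 7934 and with total counts 7932 of 12081 genes passed. Without a filter 8566 of 13443 passed, and at a mean count of 100 or more 6749 of 10175. With edgeR's exact test at a BCV of 0.1 and at the common BCV of 0.241, 0 members passed, and 1556 and 486 of all genes in place of 7931. By ratio of TPM the direction of Klf13 turned to 0.083, and to 0.0103 relative to the median gene, an alternative chosen after seeing the data; the other 8 members kept their direction. By expected count the share of Klf13-201 was 95.5% in place of 66.2%. No paired analysis was possible because the labels give a single group. With 2 libraries, the spread of low genes such as Klf9 and Klf16 is poorly known.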
